A study of Mus musculus with 15 samples.

Results

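Core histone genes of the replication-dependent class were measured by messenger RNA sequencing in mouse brain. They were taken as every gene symbol made of H2ac, H2bc, H3c or H4c followed by a number, which gave 49 of the 45777 symbols in the count tables. Of these, 14 encode H2A, 14 encode H2B, 12 encode H3 and 9 encode H4, and 20 had 10 or more reads in at least 3 libraries. The study had 5 groups of 3 libraries each, while its protocol gives 8 mice per group. Controls were kept on a normal diet. The other 4 groups all received MPTP, a toxin that damages dopamine neurons, at 20 mg/kg/day for 1 week, and then a normal diet (the MPTP group), levodopa at 2 mg/kg/day, or an inhibitor of Bruton's tyrosine kinase (BTK) for 4 weeks. The inhibitor, whose compound name the labels do not give, was dosed at 1 µg/kg/day (low dose) or 2 µg/kg/day (high dose) according to the protocol, and at 25 or 50 pM according to the sample labels. The labels name the tissue only as brain, and give no strain, age or brain region. Levodopa, the precursor of dopamine used to treat Parkinson's disease, is described as oral in the protocol and as intraperitoneal in the sample labels.

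The nucleosome is built from H2A, H2B, H3 and H4, and each of these proteins is encoded by many near-identical genes that lie in clusters. Most of these genes are read during S phase, when new DNA has to be packed, and their mRNAs end in a conserved stem-loop in place of a poly(A) tail. The stem-loop binding protein SLBP and the U7 small nuclear ribonucleoprotein direct that 3′ end. Variant histones such as H3.3 and H2A.Z are made throughout the cell cycle from ordinary polyadenylated mRNAs, which is how nondividing neurons renew much of their chromatin. A subset of the clustered genes is also known to give polyadenylated transcripts in differentiated cells. The kit named in the labels, TruSeq Stranded mRNA, selects RNA with poly(A) tails. In bulk tissue, fewer cells of a type and less RNA per cell cannot be told apart.

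In the RefSeq table of GRCm38.p6, 39 of the 49 genes lie on chromosome 13 within 2.22 Mb, from 21715711 to 23934913, and 10 lie on chromosome 3 within 0.0503 Mb, from 96219885 to 96270192. The longest coding transcript of each gene in GENCODE M21 was searched on the transcript strand for the histone stem-loop pattern, 16 bases that begin with GG, end with CC and fix 3 T and 1 A between them. The pattern was found after the stop codon in 33 of the 49, and all 33 matches fit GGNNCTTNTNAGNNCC, where N is any base. This compares with 5.21% of 21877 protein-coding gene names that hold the pattern anywhere in the transcript. Of the 16 without a match, 13 have transcript models that end within 20 bases of the stop codon. The other 3 run further, by 742 bases in H2bc4, 2192 in H2bc21 and 37 in H3c13. The following stretches are shown because the H4 genes carried other forms than the H2A, H2B and H3 genes, with the 16-letter match in capitals.
H2ac18: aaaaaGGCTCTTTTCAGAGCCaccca
H2ac19: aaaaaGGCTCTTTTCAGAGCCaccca
H2bc8: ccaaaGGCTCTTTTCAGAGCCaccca
H2bc3: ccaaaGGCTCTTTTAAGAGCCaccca
H3c15: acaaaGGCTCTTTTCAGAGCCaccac
H4c9: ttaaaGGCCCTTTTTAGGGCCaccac
H4c11: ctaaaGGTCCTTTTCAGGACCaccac
The form of H2ac18 was the most common, with 18 members of H2A, H2B and H3 and no H4 gene. The form of H2bc3 occurred in 5 members, and those of H4c9 and H4c11 in 2 members each.

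Few members gave most of the signal. All members together took 2636 to 4102 reads per library, or 0.00406% to 0.00681% of all reads. H2bc4, an H2B gene, held 40.8% of the members' reads over the 15 libraries, and H2bc21, an H2B gene of the chromosome 3 cluster, held 19.5%. These 2 genes, whose transcript models run past the stop codon with no stem-loop match, thus held 60.2% of the reads, and 6 genes (H2bc4, H2bc21, H2ac19, H2ac18, H2bc6 and H2bc8) held 90.0%. The H2B family as a whole held 73.1%.

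**Figure D1:**
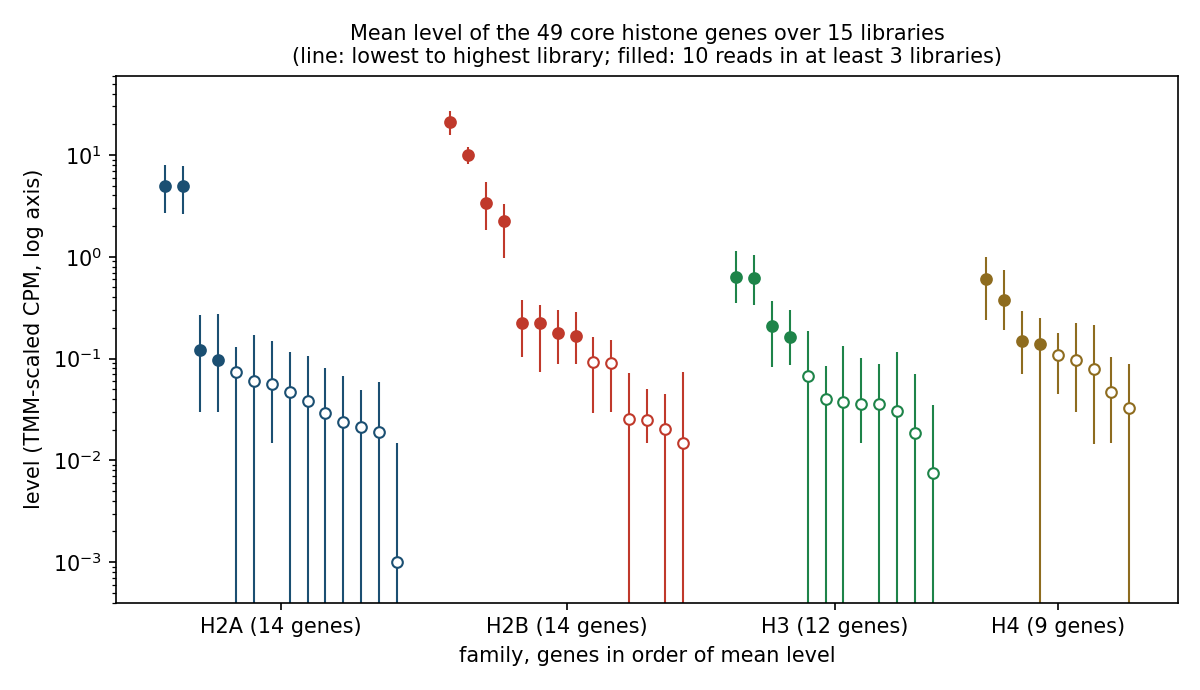
Level of each of the 49 core histone genes, as TMM-scaled CPM on a log axis, with genes ordered by mean level within each family. Points are means over 15 libraries, lines run from the lowest to the highest library (a line that reaches the lower edge includes a library at 0), and filled points mark the 20 genes with 10 or more reads in at least 3 libraries; 2 H2A and 4 H2B genes stand above the rest.

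Detection differed by family. In H2A, 4 of 14 genes reached 10 reads in 3 libraries, against 8 of 14 in H2B, 4 of 12 in H3 and 4 of 9 in H4. The 29 genes below that line had from 1 to 103 reads each over all 15 libraries, with a median of 34, and together held 2.45% of the members' reads. Their highest value in a single library was 15 reads, for H4c4. At these depths 3 reads correspond to between 0.0440 and 0.0516 CPM (a gene's reads over its library's total, in the usual CPM unit), so lower levels were not measurable in a single library. Divided by the length of the longest coding transcript, the mean levels ranked H2bc4 first at 18.3 CPM per kb, then H2ac19 at 9.43, H2ac18 at 8.42, H2bc21 at 3.83, H2bc8 at 3.64 and H2bc6 at 1.34. The highest H4 gene was H4c12 at 1.21 CPM per kb and the highest H3 gene was H3c15 at 0.605. Both ranks depend on the length of the transcript model. It is 312 bases for H4c12 against 727 for H4c9, and 1020 for H3c15 against 1825 for H3c14. Before the division H4c9 had a mean of 0.612 CPM against 0.377 for H4c12, and H3c14 had 0.640 against 0.618 for H3c15.

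Some members cannot be read as separate genes. H2ac18 and H2ac19, which lie on opposite strands of the chromosome 3 cluster, have the same longest open reading frame over all 393 bases, and their counts differed by 0 to 7 reads in each of the 15 libraries. Of the 100-base windows of their transcripts, 88.3% in H2ac18 and 100% in H2ac19 also occur in another gene. The H3 genes H3c14 and H3c15 are alike in the same way, with identical longest open reading frames and counts that differed by 1 to 10 reads. How reads shared between genes were counted is not given in the sources used here, so each pair is best read as 1 signal. H2bc4 shares 25.4% of its windows with another gene and H2bc21 shares 0%.

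The whole class was highest in the inhibitor groups. Its summed level, as CPM scaled by trimmed mean of M-values (TMM) normalisation, was 49.1 ± 2.94 CPM in controls, 40.6 ± 0.878 CPM after MPTP, 43.3 ± 2.32 CPM with levodopa, 62.2 ± 3.83 CPM at the low dose and 64.3 ± 2.03 CPM at the high dose (SD, n = 3 libraries each). All 6 inhibitor libraries, at 59.7 to 66.7 CPM, lay above the other 9, at 40.1 to 52.4 CPM. These sums are a description, with no test. For H2A the inhibitor libraries had at least 13.5 CPM and the others at most 9.34 CPM. For H2B the same limits were 41.6 and 39.8 CPM, so in both families the ranges stayed apart. In H3 the lowest inhibitor library, low-dose 3, had 1.91 CPM, and so had control 1, the highest of the others. The H4 sums overlapped, with 1.05 to 2.24 CPM under the inhibitor and 0.996 to 2.32 CPM otherwise. Without H2ac18, H2ac19 and H2bc4 the other 46 genes gave 22.4 to 25.8 CPM under the inhibitor and 16.5 to 23.4 CPM otherwise, and these ranges overlapped. The overlap came from control 1 at 23.4 CPM, and the next highest of the others was control 2 at 20.7 CPM. Group means of these 46 genes were 21.4 CPM in controls, 17.1 after MPTP, 18.4 with levodopa, 24.1 at the low dose and 23.2 at the high dose. The 3 genes left out are those in which all 6 inhibitor libraries lay above the other 9, so leaving them out itself weakens the separation.

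**Figure D2:**
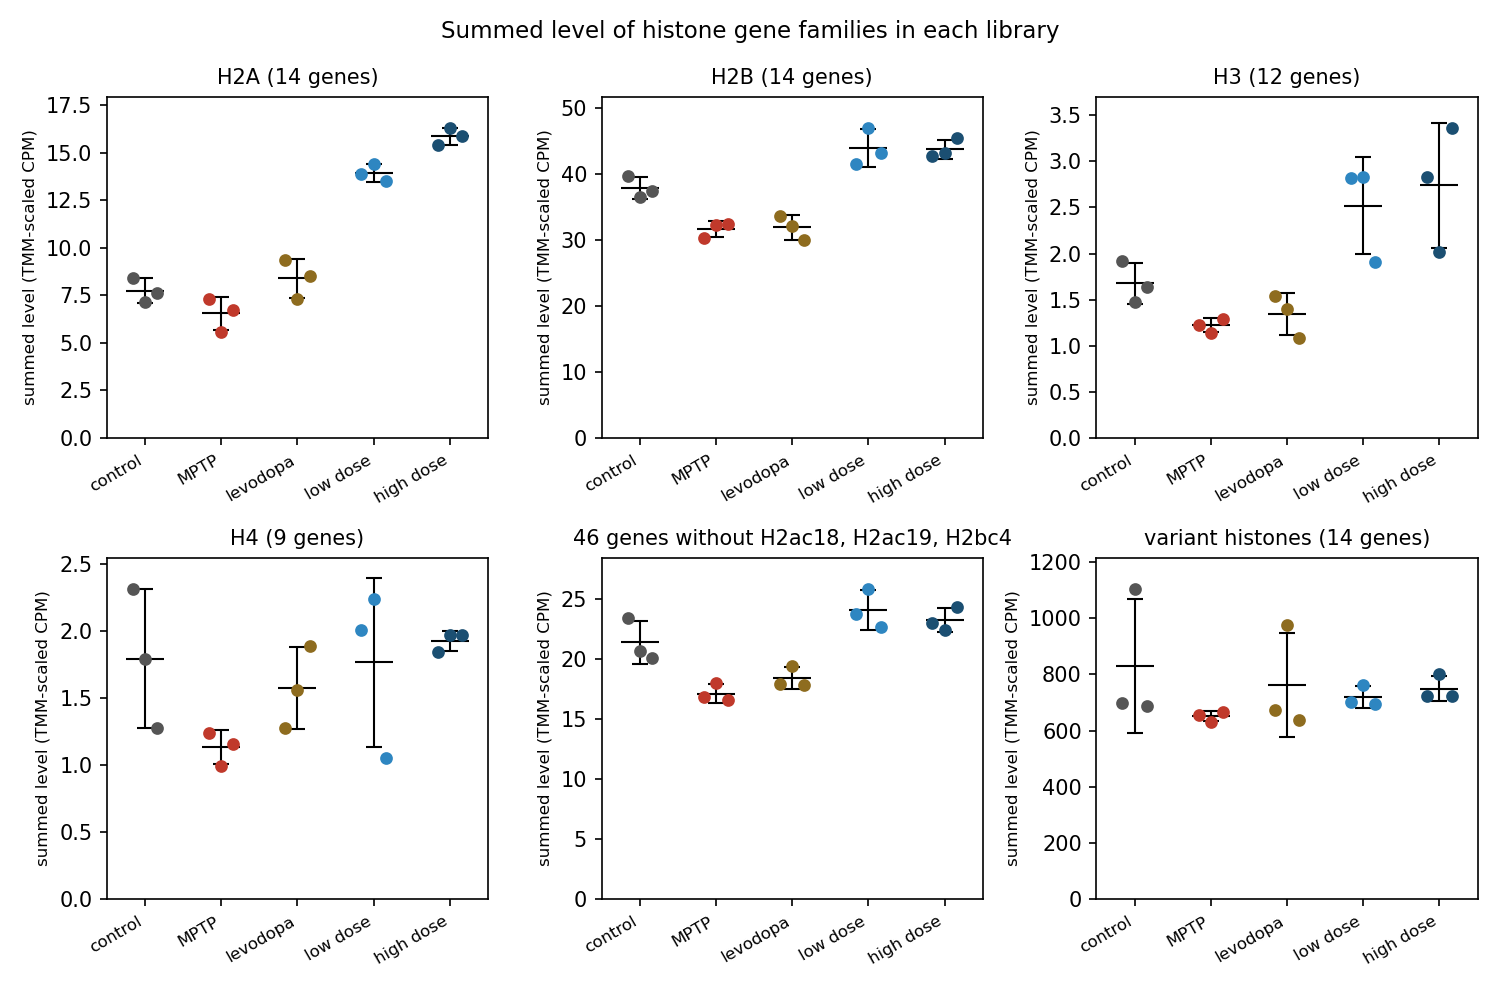
Summed level, as TMM-scaled CPM on axes that start at 0, of each core histone family, of the 46 core histone genes without H2ac18, H2ac19 and H2bc4, and of 14 variant histone genes. Points are libraries, bars are the mean and SD of 3. The H2A and H2B sums of all 6 inhibitor libraries lie above those of the other 9, and the H4 and variant histone sums overlap. For the variant histones, control 2 and levodopa 2 are the highest libraries.

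Against the MPTP group, 4 of 19 tested members rose at the low dose and 3 of 19 rose at the high dose, and none fell. Both counts include H2ac18 and H2ac19, which cannot be read as separate genes. The 19 are the members that passed edgeR's filter on low counts, not all 49, and H2ac6 was the gene with 10 reads in 3 libraries that did not pass. Over all 21821 genes tested, 4.78% rose and 3.75% fell at the low dose (8.53% in either direction), and 1.08% rose and 0.884% fell at the high dose (1.97% in either direction). The median log2 fold change of the 19 members was 0.71 at the low dose and 0.95 at the high dose, against medians of -0.0045 and -0.01 over all genes, and 18 of 19 members had positive values in each comparison. The calls are edgeR quasi-likelihood tests with Benjamini-Hochberg adjustment over all genes. Both comparisons use the same 3 MPTP libraries, and nothing in the labels says that the 3 libraries of a group are separate mice, so the p-values speak only of how these samples vary, and that variation could be technical.

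**Figure D3:**
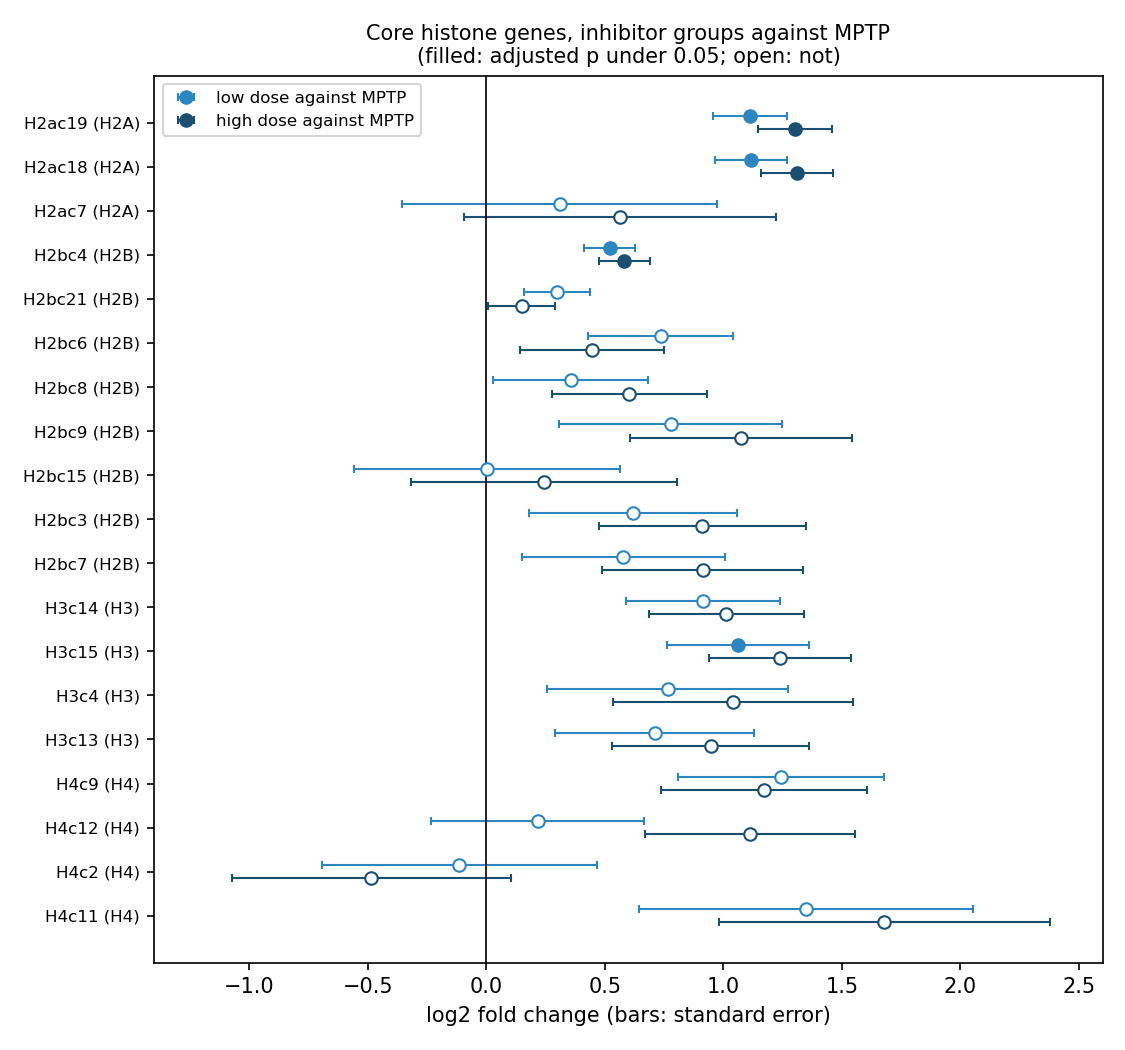
Log2 fold change against the MPTP group of the 19 core histone genes tested, at the low dose (light blue) and the high dose (dark blue), with standard errors as bars and filled points for adjusted p under 0.05. H2ac18 and H2ac19 lie between 1.11 and 1.31, H2bc4 at 0.52 and 0.58, and H4c2 is the gene below 0 in both.

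The H2A pair had the clearest separation. H2ac18 encodes a canonical H2A and lies on chromosome 3 from 96245497 to 96246052. It had 3.96, 3.35 and 3.68 CPM in controls 1 to 3, and 3.23, 2.62 and 3.20 CPM in MPTP libraries 1 to 3. With levodopa the values were 4.43, 3.45 and 4.01 CPM. They were 6.44, 6.79 and 6.39 CPM at the low dose, and 7.17, 7.81 and 7.47 CPM at the high dose. Every inhibitor library was thus above every other library, and all 3 high-dose libraries were above all 3 low-dose libraries. The log2 fold change against MPTP was 1.12 (SE 0.15, edgeR adjusted p = 0.00294) at the low dose and 1.31 (SE 0.15, adjusted p = 0.00252) at the high dose, which are 2.17-fold and 2.48-fold. Between the doses it was 0.19 (SE 0.15, edgeR adjusted p = 1), which did not pass the threshold.

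H2ac19, on chromosome 3 from 96239779 to 96240374, had nearly the same values. Its CPM were 4.05, 3.38 and 3.68 in controls, 3.34, 2.68 and 3.15 after MPTP, and 4.49, 3.35 and 4.07 with levodopa. At the low dose they were 6.50, 6.88 and 6.45, and at the high dose 7.19, 7.91 and 7.54. The log2 fold changes against MPTP were 1.11 and 1.30 at the low and high dose, with edgeR adjusted p of 0.00309 and 0.00318. The pair also passed against controls, where edgeR called no other member. H2ac18 rose by 0.84 (SE 0.15, edgeR adjusted p = 0.0159) at the low dose and 1.03 (SE 0.15, edgeR adjusted p = 0.0144) at the high dose, so 2 of 19 members were called in each comparison. Of all genes, 2.74% rose and 2.66% fell at the low dose against controls (5.4% in either direction), and 0.215% rose and 0.16% fell at the high dose (0.376% in either direction). These calls were made in the fit of all 5 groups, and no member passed in a fit of the compared groups alone (edgeR adjusted p for H2ac18 of 0.194 and 0.282). That fit changes the filter, the scaling and the estimated spread together, and which of these ended the calls was not tested. Leaving out control 2 also ended them at both doses. At the low dose H2ac18 and H2ac19 were lost without low-dose 3 too, and H2ac19 without control 3. At the high dose both were lost without control 3, high-dose 1 or high-dose 2, and H2ac19 also without high-dose 3.

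The 250 bases before the start of both H2A genes are given because their counts move as 1 signal, from RefSeq's GRCm38.p6 table, 5′ to 3′ on each gene's own strand, with CCAAT and its complement ATTGG in capitals. The window of H2ac18 is chr3:96245247-96245496 on the plus strand and that of H2ac19 is chr3:96240375-96240624 on the minus strand.
H2ac18: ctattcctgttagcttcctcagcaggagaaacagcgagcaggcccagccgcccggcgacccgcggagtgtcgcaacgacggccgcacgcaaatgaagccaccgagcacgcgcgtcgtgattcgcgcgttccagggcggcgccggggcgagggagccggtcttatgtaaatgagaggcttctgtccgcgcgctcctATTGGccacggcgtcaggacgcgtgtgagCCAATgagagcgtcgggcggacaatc
H2ac19: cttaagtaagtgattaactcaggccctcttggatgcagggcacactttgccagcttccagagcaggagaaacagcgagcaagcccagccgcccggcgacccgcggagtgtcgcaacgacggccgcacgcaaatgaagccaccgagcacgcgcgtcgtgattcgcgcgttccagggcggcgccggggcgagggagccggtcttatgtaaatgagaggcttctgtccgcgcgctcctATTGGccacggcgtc
The longest run shared by both is 169 bases, from base 42 of the H2ac18 window and base 82 of the H2ac19 window. It stops where the H2ac19 window ends, so its full length is not shown. H2ac18 holds 2 matches to CCAAT and H2ac19 holds 1, counting both strands. The further match of H2ac18 lies past the shared run, so these windows do not show whether H2ac19 has it too. CCAAT was found in 84.4% of 45 member windows in the table and in 33.8% of all 32851 windows of the same length, and TATAAA in 44.4% and 12.4%. Neither H2A window holds TATAAA. H3c14 and H3c15 share a run of 231 bases in their windows, which starts at the edge of the H3c15 window. Neither of these 2 windows holds either motif. Both motifs were searched on both strands, and overlapping matches count for each. A match is a description of these letters and not a measured site.

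H2bc4, the H2B gene with the highest level per kb of the class, also rose at both doses, with smaller fold changes. It lies on chromosome 13 from 23684199 to 23692480. Its levels were 21.0, 19.5 and 20.5 CPM in controls, 16.8, 16.7 and 18.7 CPM after MPTP, and 19.05, 16.2 and 15.6 CPM with levodopa. They were 23.6, 27.1 and 24.2 CPM at the low dose and 25.6, 25.4 and 27.3 CPM at the high dose. Again all 6 inhibitor libraries were above the other 9. The log2 fold change against MPTP was 0.52 (SE 0.11, edgeR adjusted p = 0.0143) at the low dose and 0.58 (SE 0.11, edgeR adjusted p = 0.0241) at the high dose. Leaving out any 1 of the 6 compared libraries ended the high-dose call, with adjusted p from 0.0657 to 0.119, and leaving out MPTP 2 ended the low-dose call (adjusted p = 0.0733). Against controls the values were 0.30 and 0.36, with edgeR adjusted p of 0.115 and 0.119. H2ac18, H2ac19 and H2bc4 were the 3 of 19 tested members with all 6 inhibitor libraries above the other 9. Of all genes tested, 4.69% also had this order, while 3.87% had all 6 below. H2ac18 and H2ac19 are counted apart here, though they cannot be read as separate genes.

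H2bc21, the H2B gene with the second most reads, did not pass in any of the 7 comparisons. It lies on chromosome 3 from 96221072 to 96223738, near the H2A pair. Its levels were 10.8, 11.9 and 10.2 CPM in controls, 8.18, 10.2 and 8.20 CPM after MPTP, and 8.77, 11.3 and 9.14 CPM with levodopa. They were 10.8, 10.2 and 11.7 CPM at the low dose and 9.84, 10.3 and 9.29 CPM at the high dose, inside the range of the other 9 libraries. Its log2 fold changes against MPTP were 0.30 (SE 0.14) and 0.15 (SE 0.14) at the low and high dose. Among the other H2B genes, H2bc6 ranged from 1.85 to 5.43 CPM and H2bc8 from 0.981 to 3.30 CPM, and the remaining 4 tested ranged between 0.0732 and 0.373 CPM. None of these passed.

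**Figure D4:**
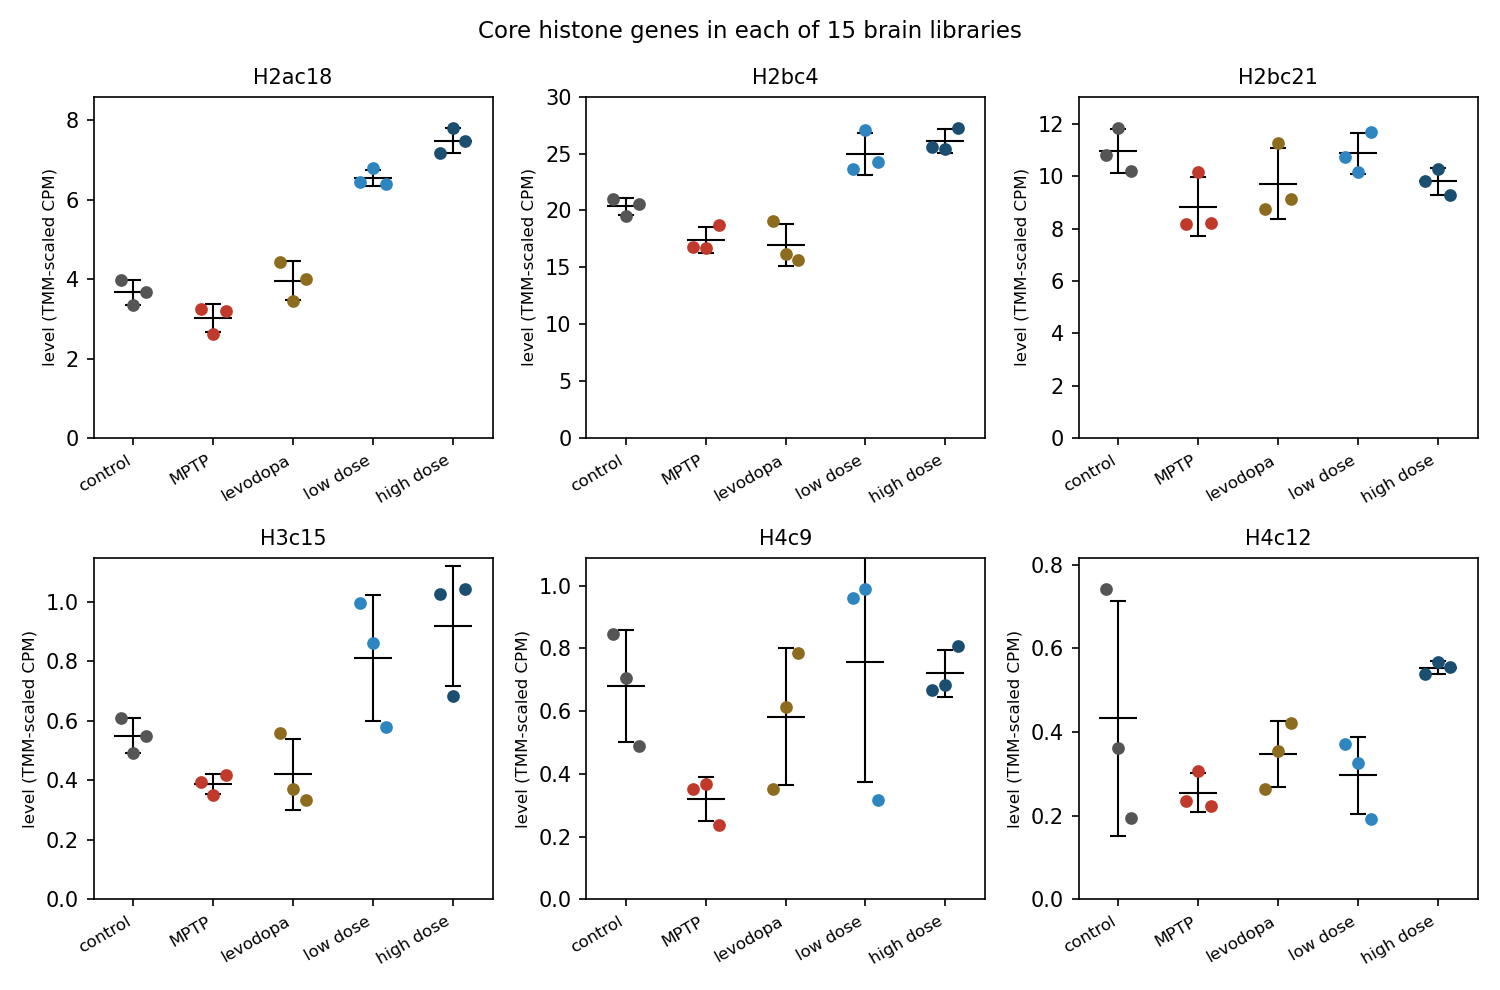
Level of 6 core histone genes in each library, as TMM-scaled CPM on axes that start at 0, with bars for the mean and SD of 3 libraries. For H2ac18 and H2bc4 all 6 inhibitor libraries lie above the other 9, for H2bc21 the inhibitor libraries lie within the range of the other 9, and H3c15, H4c9 and H4c12 lie near or below 1 CPM.

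The H3 genes had low counts, with 23 to 63 reads per library for H3c15. This gene had 0.609, 0.493 and 0.550 CPM in controls, 0.395, 0.351 and 0.416 CPM after MPTP, and 0.557, 0.370 and 0.334 CPM with levodopa. The values were 0.995, 0.860 and 0.578 CPM at the low dose and 1.03, 0.684 and 1.04 CPM at the high dose. All 6 inhibitor libraries were above the 3 MPTP libraries, and low-dose 3 was below control 1. The log2 fold change against MPTP was 1.06 (SE 0.30, edgeR adjusted p = 0.0465) at the low dose and 1.24 (SE 0.30, edgeR adjusted p = 0.0533) at the high dose. The low-dose call was lost under 8 of 14 alternatives, including each MPTP library left out and low-dose 1 or 2 left out (adjusted p up to 0.161), and it was lost when H3c14 and H3c15 were counted as 1 gene (adjusted p = 0.0672).

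H3c14, whose reads overlap those of H3c15, had 0.594, 0.575 and 0.520 CPM in controls, 0.439, 0.439 and 0.461 CPM after MPTP, and 0.601, 0.386 and 0.349 CPM with levodopa. It had 0.962, 1.02 and 0.543 CPM at the low dose and 0.978, 0.601 and 1.13 CPM at the high dose. Its log2 fold changes against MPTP, 0.91 and 1.01, did not pass (edgeR adjusted p = 0.0998 and 0.122). H3c4 and H3c13, the other tested H3 genes, ranged from 0.0821 to 0.370 CPM and did not pass.

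No H4 gene passed in any comparison. H4c9 had 0.846, 0.706 and 0.490 CPM in controls, 0.351, 0.366 and 0.238 CPM after MPTP, and 0.352, 0.612 and 0.784 CPM with levodopa. It had 0.962, 0.990 and 0.315 CPM at the low dose and 0.668, 0.684 and 0.808 CPM at the high dose, so low-dose 3 fell among the MPTP values. H4c12 had 0.742, 0.361 and 0.193 CPM in controls, 0.234, 0.308 and 0.223 CPM after MPTP, and 0.264, 0.354 and 0.421 CPM with levodopa. It had 0.371, 0.325 and 0.193 CPM at the low dose and 0.538, 0.567 and 0.555 CPM at the high dose. The 3 high-dose libraries of H4c12 lay close together, and the 3 controls ranged from 0.193 to 0.742 CPM. The log2 fold changes of H4c9 against MPTP were 1.24 (SE 0.44) and 1.17 (SE 0.44), and those of H4c12 were 0.22 (SE 0.45) and 1.11 (SE 0.44). Without low-dose 3, H4c9 passed at the low dose (log2 fold change 1.62, edgeR adjusted p = 0.0461).

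No member was called after MPTP against controls, with levodopa against MPTP, or between the doses, and in the edgeR fit 0.0% of all genes were called in each of these 3 comparisons. At an unadjusted p under 0.05 there were 3, 2 and 0 of 19 members, against 6.62%, 2.96% and 2.23% of all genes, and DESeq2 also called 0 members in each, while it called 53, 2 and 2 of all genes. After MPTP 17 of 19 members had lower values than in controls, with a median log2 fold change of -0.28 against -0.01 over all genes. With levodopa the median was 0.14, with 13 of 19 positive. Between the doses it was 0.24, with 15 of 19 higher at the high dose. Against controls the medians were 0.37 at the low dose and 0.38 at the high dose, with 15 and 16 of 19 positive.

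Variant histone genes, which are read outside S phase too, summed to 632 to 1104 CPM over 14 genes. The sums of the 6 inhibitor libraries (694 to 801 CPM) lay within the range of the other 9. The top of that range came from control 2 (1104 CPM) and levodopa 2 (974 CPM). Next among the other 9 was control 1 at 697 CPM, above low-dose 3 (694 CPM) and below the remaining inhibitor libraries. The 3 MPTP libraries, at 632 to 665 CPM, were below all 6 inhibitor libraries and all 3 controls. Of 13 tested, 6 rose at the low dose against MPTP (4.78% of all genes rose) and 1 rose at the high dose (1.08% of all genes), and none fell. H2afj, a variant H2A gene, rose at both doses, from 14.1 ± 1.40 CPM after MPTP to 26.7 ± 1.71 and 26.8 ± 1.67 CPM (SD, n = 3, edgeR adjusted p = 0.00212 and 0.0034). It was also the 1 variant that edgeR called against controls at each dose, where 2.74% and 0.215% of all genes rose at the low and high dose. DESeq2 called 3 and 2 variants higher against controls, and 5.81% and 3.38% of all genes. At the low dose H2afx, whose product is phosphorylated at DNA breaks, rose from 14.8 ± 3.01 to 23.8 ± 0.933 CPM (edgeR adjusted p = 0.0239). Cenpa, the H3 variant of centromeres, rose from 0.457 ± 0.115 to 1.12 ± 0.0181 CPM (edgeR adjusted p = 0.0266), and H2afv, which encodes an H2A.Z protein, rose from 24.1 ± 1.28 to 33.3 ± 3.12 CPM (edgeR adjusted p = 0.0295). At the high dose DESeq2 called 5 variants higher, and 3.97% of all genes, where edgeR called 1. Both tested linker histone genes of the clusters, H1f2 and H1f4, were not called in any of the 7 comparisons by edgeR or DESeq2, with at most 1 of the 2 at an unadjusted p under 0.05.

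The machinery around the histone genes was measured with the same fit. Over all genes, 25.8% at the low dose and 18.5% at the high dose had an unadjusted p under 0.05 against MPTP, and DESeq2 called 14.3% and 7.28%. Of 18 genes for histone mRNA 3′ end formation and histone gene transcription, edgeR called 0 against MPTP at either dose, with 5 and 1 at an unadjusted p under 0.05, and DESeq2 called 1 higher and 3 lower at the low dose and 0 at the high dose. Slbp, which encodes the stem-loop binding protein, had 31.8 ± 3.27 CPM after MPTP, 25.6 ± 3.28 CPM at the low dose and 29.9 ± 1.11 CPM at the high dose. Of 18 histone chaperone genes, 0 were called by edgeR or DESeq2 at either dose, with 1 and 0 at an unadjusted p under 0.05. Of 28 S phase and proliferation genes, 3 rose at the low dose and 0 were called at the high dose by edgeR, which called 4.78% and 1.08% of all genes higher. DESeq2 called 6 and 2 of the 28 higher, against 7.51% and 3.97% of all genes. At an unadjusted p under 0.05 there were 9 and 5 of the 28, beside 25.8% and 18.5% of all genes. Mki67, a marker of cycling cells, rose from 0.987 ± 0.216 to 6.75 ± 1.33 CPM at the low dose (edgeR adjusted p = 0.0290), and control 1 had 7.17 CPM. Rrm2, a subunit of ribonucleotide reductase, rose from 1.30 ± 0.200 to 3.15 ± 0.468 CPM (edgeR adjusted p = 0.0341), and Ccnb1, the mitotic cyclin B1, from 0.152 ± 0.0215 to 1.07 ± 0.271 CPM (edgeR adjusted p = 0.0297).

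Other measures moved with the inhibitor groups, and their part in the histone values was not tested. Markers of cortex and hippocampus added up to 1517 to 4007 CPM under the inhibitor and to 602 to 1330 CPM in the other 9 libraries. The means were 3024 CPM over the 6 inhibitor libraries and 964 CPM over the other 9. Choroid plexus and ependyma markers added up to 380 to 1563 CPM under the inhibitor and to 36.0 to 1007 CPM otherwise. Here the means were 1109 and 202 CPM, with control 3 the highest of the other 9 at 1007 CPM. The cerebellar marker sum was 10167 CPM for control 2, 8335 CPM for levodopa 2 and between 296 and 574 CPM elsewhere. H2ac18 kept its calls against MPTP without these 2 libraries. Neither was in the groups compared, so leaving them out could change only the filter, the scaling and the shared spread. Neuroblast and progenitor markers gave 146 to 195 CPM under the inhibitor and 45.6 to 166 CPM otherwise. Defining markers of brain cells were present in every library, with neuron markers at 4751 to 7084 CPM, astrocyte markers at 2624 to 3629 CPM, oligodendrocyte markers at 6456 to 17006 CPM and microglia markers at 102 to 305 CPM.

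RNAs that normally lack a poly(A) tail were read beside the histones. The 24 listed summed to 3.32 to 3.58 CPM in the MPTP libraries, 4.81 to 5.60 CPM with levodopa, 4.26 to 12.0 CPM in controls and 6.02 to 10.1 CPM in the inhibitor libraries. Of the 7 tested, Rn7s1, a signal recognition particle RNA, rose at the low dose against MPTP from 0.668 ± 0.110 to 1.90 ± 0.680 CPM (edgeR adjusted p = 0.0485). It was the 1 called at the low dose, where 4.78% of all genes rose, and 0 were called at the high dose (1.08% rose). At an unadjusted p under 0.05 there were 3 of 7 at each dose, against 25.8% and 18.5% of all genes. DESeq2 called 3 and 2 of the list higher, against 7.51% and 3.97% of all genes. After MPTP against controls edgeR called 0 and DESeq2 called 2 lower, against 0.157% of all genes. The highest sum, 12.0 CPM, was in control 2. Group means of the sum were 8.39 CPM in controls, 3.44 after MPTP, 5.32 with levodopa, 7.75 at the low dose and 8.21 at the high dose. The part of these RNAs in the histone values was not tested. Of all reads, mitochondrial ribosomal RNA made up 0.937% to 1.48% under the inhibitor and 0.244% to 0.880% otherwise. Library totals were 58149722 to 61998459 reads in the inhibitor groups and 63314658 to 68257095 in the other 9, and the deposited tables of the inhibitor groups have 24 empty trailing columns against 51 in the rest. The handling of the samples and the treatment cannot be told apart on these points.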

How the data were processed

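Read counts per gene symbol, as the authors deposited them, were analysed in 15 brain libraries. The tools that the submitters' processing notes list are Trimmomatic, StringTie 2.1.3b, HISAT2 2.1.0 and bcl2fastq 2.20.0, with the GRCm38/mm10 genome, and neither the annotation nor the strand setting is given in the sources used here. Testing used edgeR 4.0.16 under R 4.3.3, in 1 fit of all libraries, with TMM normalisation, filterByExpr by group and Benjamini-Hochberg adjustment at 0.05. It was run on simulated data for the low and the high dose against MPTP. There it recovered 31 and 27 of 100 changes of 2-fold and 82 and 73 of 100 of 4-fold, with 3 and 5 false calls. Most 2-fold changes were thus missed. The changes were placed only in genes above a floor on mean reads. Tested members with few reads, such as H2ac7 and H4c11, lie below that floor, so the recovery does not describe them. DESeq2 1.42.0 and other settings were alternatives. Standard errors are log2 fold changes over the root of the F statistic. The members, gene lists and tests were chosen with earlier results of these data known. Values per library are given for members called in any comparison and for the 2 highest of each family by mean CPM, and for other lists at most 4 genes with the smallest p. Of 205 list entries, 201 matched a symbol, some by an older name. Pairs of libraries within a group differed beyond sampling noise (chi-square per degree of freedom of 31.7 to 512), so none was counted as a duplicate. Promoter windows were used for 44 of the 49 members.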

Additional observations from a re-analysis of the deposited data

How the results depend on the processing

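Counts of members called kept their direction in every alternative, but not their size. With both near-identical pairs counted as 1 gene each, chosen after seeing the data, 2 members were called at the low dose against MPTP, 2 at the high dose, and 1 at either dose against controls. That fit took the rounded mean of both counts of each pair. For the summed level H2ac19 and H3c15 were left out instead. It was then 44.8 CPM in controls, 37.2 after MPTP, 38.9 with levodopa, 54.8 at the low dose and 55.9 at the high dose. If shared reads were divided between the copies, these sums leave out part of the signal. With only the compared groups fitted, 7 members were called at the high dose against MPTP, 0 at the low dose against controls and 0 at the high dose against controls. Leaving out 1 library at a time gave 2 to 5 at the low dose against MPTP, 2 at the high dose against MPTP, 0 to 2 at the low dose against controls and 0 to 2 at the high dose against controls. Over all genes the high-dose count against MPTP was 429 in the main fit (1.97% of 21821). It was 18 to 138 with 1 library left out and 1620 with DESeq2 (7.28% of 22250). It was 2477 without both cerebellum-rich libraries, and 3560 with only the compared groups, the fit that called 7 members. All-gene counts at the low dose and against controls are not given here for libraries left out, merged pairs or compared groups alone. Those member counts are thus a description only. The uncalled change of H2bc4 with levodopa (-0.04) ranged from -0.12 to 0.035 with 1 library left out, and turned positive without MPTP 3 (0.023) and without levodopa 3 (0.035). H2ac18 kept its calls against MPTP under all 15 alternatives (adjusted p at most 0.0205 and 0.0277 at the low and high dose).

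Replicate numbers did not pair the libraries, since correlations of equal numbers ran from -0.297 to 0.239 and at most 1 of 3 pairs exceeded 0.1 in any comparison. With the replicate number as a block, 4 members were called at the low dose and 3 at the high dose against MPTP, 2 at each dose against controls, and 0 in the other comparisons, and of all genes 226 at the high dose and 46 at the high dose against controls, against 429 and 82 without it. Tested members other than H2ac18, H2ac19, H2bc4 and H2bc21 have standard errors of log2 fold changes from 0.29 to 0.71, so changes of that size were not detectable. Larger changes against MPTP also went uncalled, such as 1.24 (SE 0.44) for H4c9 at the low dose and 1.68 (SE 0.70) for H4c11 at the high dose.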

Other observations

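A few values stood apart in single libraries and were chosen after they were seen. Low-dose 3 had 11 members with 10 or more reads, the fewest of any library, against 13 to 19 in the other 14. In it H2bc8 had 56 reads (0.981 CPM), against 115 to 203 reads in the other 14 libraries. H2aw, an H2A gene outside the rule for members, had 39 reads in low-dose 3 and 3 reads in levodopa 2, against 172 to 513 reads in the other 13. In the same low-dose library H2ac18 (6.39 CPM) and H2bc4 (24.2 CPM) were close to the other 2 low-dose libraries. H2bc6 spread from 1.90 to 5.02 CPM among the 3 controls and from 2.68 to 2.84 CPM among the 3 MPTP libraries.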
